A study of Mus musculus with 6 samples.

Results

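Carbonyl-reducing, aldehyde-oxidizing and glutathione-conjugating enzymes were followed at the mRNA level in cultured mouse fibroblasts. The genes were taken by symbol: glutathione transferases of the alpha, pi, theta, omega, zeta and kappa classes (Gsta, Gstp, Gstt, Gsto, Gstz, Gstk), microsomal glutathione transferases (Mgst), aldo-keto reductases (Akr), aldehyde dehydrogenases (Aldh) and carbonyl reductases (Cbr). Aldh1l2 and Aldh18a1 were left out, and the mu-class transferases are not part of the group. This gave 58 genes of the 55401 in the table. Of these, 35 had a level of at least 1 TPM (a unit of abundance that is scaled for transcript length and library total) in at least 3 of the 6 libraries and were tested. The group consists of 15 transferases of the soluble and kappa classes, 3 microsomal transferases, 17 aldo-keto reductases, 19 aldehyde dehydrogenases and 4 carbonyl reductases.

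The cells were NIH-3T3, an established embryonic fibroblast line, cultured in medium with serum, and the labels name no other treatment. The libraries labelled WT (n = 3) came from the unmutated line and those labelled MU (n = 3) from a mutated derivative of that line. The study's title concerns errors of mitochondrial translation, oxidative stress and arrest of the cell cycle. The labels name neither the altered gene nor the allele, and do not state whether the derivative is 1 clone, so an effect of the mutation and any other difference between both lines cannot be told apart. They also do not state that replicates were separate cultures, so p-values reflect only the spread between these libraries, which may be technical.

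These families act on reactive carbonyl compounds and electrophiles. Carbonyl reductases and most aldo-keto reductases use NADPH to turn aldehydes, ketones and quinones into alcohols, and several aldo-keto reductases also act on steroids and prostaglandins. Aldehyde dehydrogenases oxidize aldehydes to acids with NAD or NADP, either in defence against lipid-derived aldehydes or as steps in the breakdown of amino acids and other metabolites. Glutathione transferases join electrophiles to the thiol glutathione, while some members work as isomerases, reductases or peroxidases. Many genes of these families are known targets of NRF2, a transcription factor that binds the antioxidant response element, and some respond to the aryl hydrocarbon receptor.

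Sequencing depth is unknown, because TPM keeps no read counts. Correlations of log2(TPM + 1) across genes were 0.949 to 0.966 within WT, 0.971 to 0.976 within MU and 0.937 to 0.945 across the groups (Pearson, genes are not independent replicates). Of 11 fibroblast markers, 10 were tested, of which 4 rose (Col1a1, Col1a2, Thy1 and Fn1) and 1 fell (Dcn). Of all genes tested, 7.12% rose and 11.6% fell (limma adjusted p under 0.05). Lum was not tested, at 1.68, 0.812 and 1.07 TPM in WT and 0, 0.162 and 0.0311 TPM in MU. The 11 markers had a summed level of 8680 to 9940 TPM in WT and 11130 to 11640 TPM in MU. The collagen gene Col1a2 rose from 859 to 2180 TPM and the proteoglycan gene Dcn fell from 119 to 8.13 TPM (limma adjusted p = 0.00062 and 7.8e-05). Markers of other cell types were low. Serpina1a (hepatocyte) and Csf1r (leukocyte) rose and Cdh5 (endothelium) fell (limma adjusted p = 0.0015, 0.00528 and 0.0186). Serpina1a reached 1 TPM in MU alone and Cdh5 in WT alone, so these had to differ to be tested. Of 6 hepatocyte markers, Alb, Apoa1, Ttr and Cyp3a11 were listed at 0 in every library, and the sum was 0.291 to 0.494 TPM in WT and 3.96 to 6.39 TPM in MU through 1 gene, Serpina1a. The 6 leukocyte markers summed to 4.01 to 5.19 TPM in WT and 9.53 to 11.0 TPM in MU, with Adgre1 listed at 0 throughout and Csf1r at 1.87 and 5.34 TPM on average. Sums over 7 muscle markers (1.48 to 3.68 in WT, 4.69 to 5.48 in MU), 7 epithelial markers (0.79 to 1.54 and 1.60 to 2.31), 5 endothelial markers (1.77 to 3.22 and 0.692 to 0.867) and 7 adipocyte markers (0.316 to 0.47 and 0.0556 to 0.332) are likewise in TPM. The part of these markers in the results was not tested, and fewer cells of a type and less RNA per cell cannot be told apart in bulk libraries.

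The enzymes changed in both directions. Of the 35 tested, 6 rose and 9 fell in MU, at a limma p adjusted over all genes tested (Benjamini-Hochberg) under 0.05. Among all 14209 genes tested, 18.8% passed in either direction, 7.12% as higher and 11.6% as lower, against 42.9% of the enzymes. At least a 2-fold change besides was seen for 6 of the 35 enzymes and 5.01% of all genes. Values of the groups did not overlap for 22 of the 35 (62.9%), against 39.2% of all genes tested. The enzymes and the other lists below were chosen with earlier results of these data known, so such shares only describe them. The median difference of the enzymes was 0.04 on the log2(TPM + 1) scale, against −0.05 for all genes, while the median size of the difference without its sign was 0.54 against 0.27. For 2 of the 35, Akr1c13 and Akr1c18, only 1 group reached the level needed for testing, so these had to differ. Leaving out 1 library at a time gave 4 to 7 higher and 6 to 10 lower enzymes. Calls were spread over families: 6 of 8 soluble transferases, 2 of 3 microsomal transferases, 4 of 9 aldo-keto reductases and 2 of 4 carbonyl reductases passed, but 1 of 11 aldehyde dehydrogenases.

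**Figure D1:**
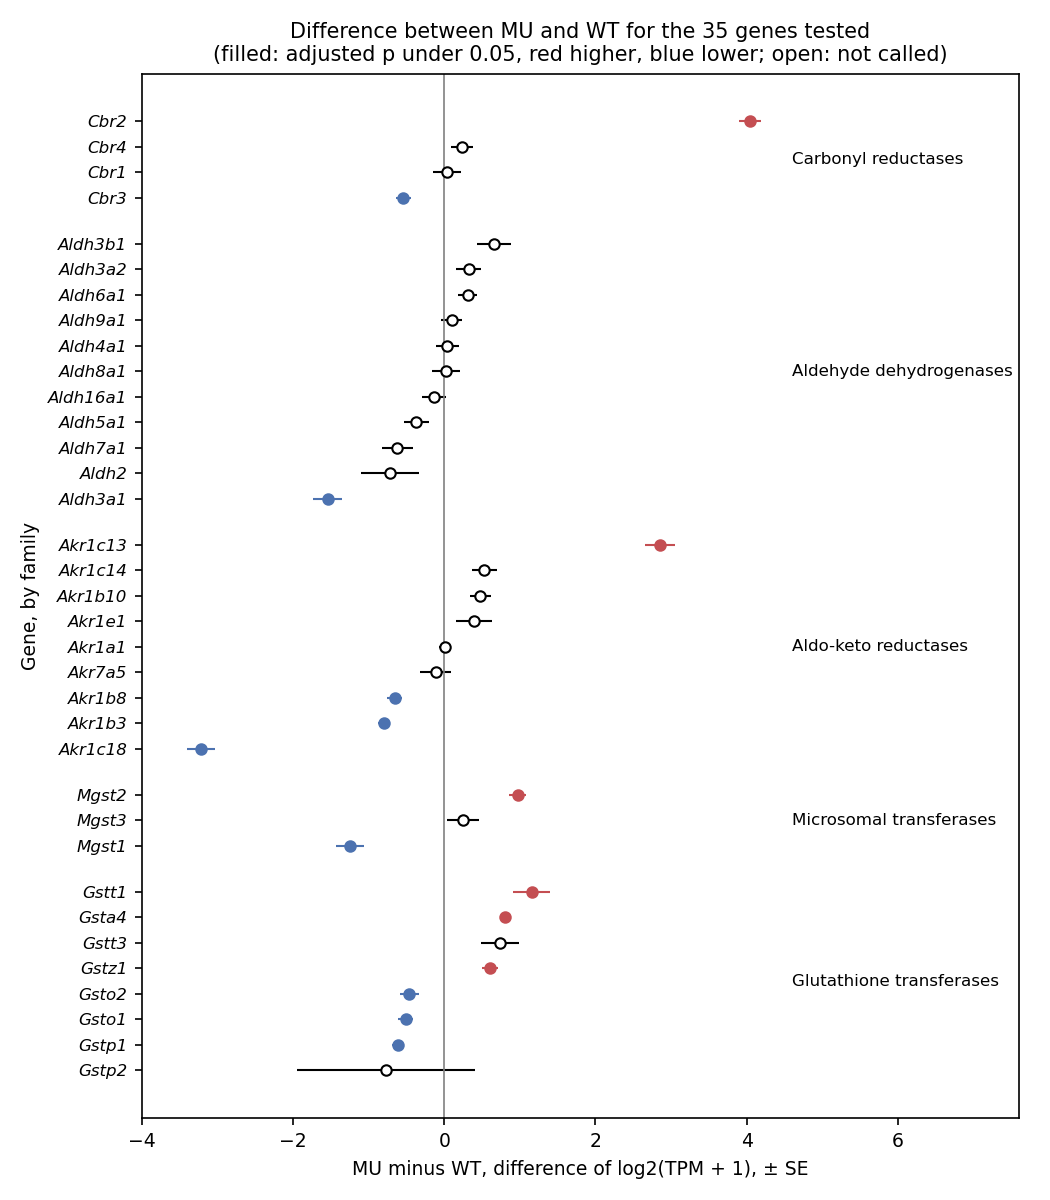
Difference between MU and WT on the log2(TPM + 1) scale (horizontal axis, ± SE, 3 libraries a group) for the 35 enzyme genes tested, by family (vertical axis). Filled points passed the test (red higher in MU, blue lower), open points did not, and rises up to 4.05 (Cbr2) stand beside falls down to −3.22 (Akr1c18).

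Carbonyl reductases held the largest rise of the group. Cbr2, which encodes a tetrameric carbonyl reductase known from mouse lung, had 7.20, 6.67 and 5.81 TPM in WT against 110.0, 114.8 and 150.1 TPM in the MU libraries. Every MU library was far above every WT library, and the difference was 4.05 on the log2 scale (SE 0.14, limma adjusted p = 7.8e-05). Cbr2 (ENSMUSG00000025150.10) lies on chromosome 11, from 120729489 to 120732114 on the minus strand (GRCm38, the assembly also called mm10). Of its 50-base transcript windows, 12.1% also occur in Gm11771, which was listed at 0 in every library.

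Cbr3, a close relative of Cbr1, was at 38.2, 38.97 and 43.2 TPM in WT and at 26.7, 25.9 and 29.3 TPM in MU. It fell by 0.54 on the log2 scale (SE 0.09, limma adjusted p = 0.0113). The groups did not overlap, but the call was lost without MU replicate 1 (limma adjusted p = 0.0568) or MU replicate 2 (0.0607). Cbr1, a cytosolic reductase of quinones and prostaglandins, was at 24.6, 25.7 and 16.4 TPM in WT and 22.9, 25.1 and 19.5 TPM in MU. Its groups overlapped, with a difference of 0.04 and a 95% interval from −0.42 to 0.49 on the log2 scale. Cbr1 and Cbr3 lie side by side on chromosome 16 (93605853 to 93610505 and 93683215 to 93690990). Their coding sequences of 834 bases are 77.2% identical, and they share hardly any 50-base window (0.0797% of those of Cbr3). Cbr4, a mitochondrial reductase that takes part in fatty acid synthesis there, was at 7.01, 9.61 and 9.27 TPM in WT and 10.2, 9.35 and 11.2 TPM in MU, a difference of 0.23 (SE 0.15, limma adjusted p = 0.324). Cbr4 is on chromosome 8, where the median difference of 747 tested genes was −0.31.

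Among the aldo-keto reductases, Akr1a1 was the most abundant. It encodes aldehyde reductase, which in mice also serves the synthesis of ascorbate, and its levels were 486, 539 and 502 TPM in WT and 513, 509 and 515 TPM in MU. The groups overlapped, and the difference of 0.01 had a 95% interval from −0.19 to 0.21 on the log2 scale (limma adjusted p = 0.947). The next in abundance, Akr1b3, encodes aldose reductase, which turns glucose into sorbitol in the polyol pathway. Its levels were 154, 160.8 and 160.6 TPM in WT and 90.6, 86.3 and 94.3 TPM in MU. All MU libraries were below all WT libraries, and Akr1b3 fell by 0.80 on the log2 scale (SE 0.08, limma adjusted p = 0.00151). Of its 50-base windows 13.6% recur in other genes, mostly Gm38056, whose level was 15.8 to 39.8 TPM.

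The neighbours of Akr1b3 on chromosome 6 (34302434 to 34317478) did not all share its direction. Akr1b8, an aldose reductase-like enzyme, was at 75.1, 87.0 and 71.3 TPM in WT and 48.5, 47.2 and 50.9 TPM in MU, and fell (limma adjusted p = 0.00707). Akr1b10, the next gene downstream of Akr1b8, was at 9.08, 8.95 and 8.22 TPM in WT and 10.8, 14.8 and 12.3 TPM in MU. Its groups did not overlap, but the difference of 0.48 did not pass (limma adjusted p = 0.0535). It passed with other scalings, at adjusted p values of 0.0402 to 0.0493 (limma), but not when any 1 library was left out (0.0682 to 0.169). The authors' deposited table gives Akr1b10 an adjusted p of 0.0412. The coding sequences of Akr1b8 and Akr1b10 are 84.8% identical, and 1.18% of the 50-base windows of Akr1b10 occur in another gene. Akr1b7, the fourth gene of this cluster, reached at most 0.277 TPM and was not tested.

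The Akr1c genes, which encode hydroxysteroid dehydrogenases, held a pair of neighbours that changed in opposite directions. Akr1c18 encodes the enzyme that inactivates progesterone by reducing its side chain. It was at 7.91, 8.47 and 11.0 TPM in WT and at 0.161, 0.0753 and 0 TPM in MU. Akr1c13, the next gene along chromosome 13, was at 0.143, 0.263 and 0.711 TPM in WT and at 8.67, 8.80 and 8.82 TPM in MU. Neither pair of groups overlapped, but each gene reached 1 TPM in 1 group alone, so it had to differ to be tested. The difference was −3.22 for Akr1c18 (SE 0.18, limma adjusted p = 0.000285) and 2.85 for Akr1c13 (SE 0.19, limma adjusted p = 0.000502). Akr1c18 spans 4132615 to 4150654 on the minus strand and Akr1c13 spans 4191150 to 4205596 on the plus strand. Their coding sequences of 972 bases are 73.97% identical with no shared 50-base window, so reads of that length can be told apart between them.

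The RefSeq promoter windows of these neighbours (GRCm38.p6, 250 bases before to 50 after the annotated start, 300 in all) are printed because the genes moved in opposite directions. Capitals would mark the core of the antioxidant response element, TGACNNNGC on either strand, and neither window has it.
Akr1c13, chr13:4190937-4191236, plus strand: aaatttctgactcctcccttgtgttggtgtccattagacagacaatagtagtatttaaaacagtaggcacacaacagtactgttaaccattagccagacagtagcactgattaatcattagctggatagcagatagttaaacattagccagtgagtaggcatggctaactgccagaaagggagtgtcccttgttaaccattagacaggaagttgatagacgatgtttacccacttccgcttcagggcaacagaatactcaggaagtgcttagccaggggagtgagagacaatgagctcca
Akr1c18, chr13:4150597-4150896, minus strand: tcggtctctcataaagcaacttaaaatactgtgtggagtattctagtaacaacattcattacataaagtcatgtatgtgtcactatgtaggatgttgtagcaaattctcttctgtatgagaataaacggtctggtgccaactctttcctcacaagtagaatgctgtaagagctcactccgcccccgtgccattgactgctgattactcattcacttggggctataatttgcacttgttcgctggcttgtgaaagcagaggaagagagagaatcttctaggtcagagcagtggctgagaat

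Akr1c12, a close copy of Akr1c13, was listed at 0 in all WT libraries and at 0.953, 1.03 and 0.809 TPM in MU, just short of the level for testing. The authors' deposited table gives it a log2 fold change of 1.41 and an adjusted p of 0.000708. The coding sequences of both genes have 972 bases and differ at 37 of them, an identity of 96.2%. Of the 50-base windows of the transcripts, 28.6% of those of Akr1c12 also occur in Akr1c13 and 24.2% of those of Akr1c13 in Akr1c12, so their levels are uncertain and could share reads. The first 90 coding bases (5′ to 3′, GENCODE M21 transcripts) show how few bases separate the copies, with the 2 that differ in capitals.
Akr1c12: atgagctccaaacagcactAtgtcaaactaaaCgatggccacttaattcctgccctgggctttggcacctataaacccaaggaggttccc
Akr1c13: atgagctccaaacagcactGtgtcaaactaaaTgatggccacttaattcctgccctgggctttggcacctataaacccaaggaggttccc

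Other genes of the chromosome 13 cluster did not pass or were nearly silent. Akr1c14, which encodes a 3-alpha-hydroxysteroid dehydrogenase, was at 4.72, 2.99 and 3.56 TPM in WT and 5.77, 5.54 and 6.04 TPM in MU, without overlap but short of the threshold (limma adjusted p = 0.0736, or 0.0465 with median-of-ratios scaling). The authors' deposited table gives Akr1c14 an adjusted p of 0.0151. Akr1e1, whose enzyme reduces anhydrofructose, was at 7.13, 4.03 and 4.22 TPM in WT and 8.41, 6.85 and 5.58 TPM in MU, and its groups overlapped. Akr1c6 and Akr1c20 were listed at 0 in every library, and Akr1c19 and Akr1c21 stayed at or below 0.157 TPM. Outside the cluster, Akr7a5, an aflatoxin aldehyde reductase, averaged 22.3 ± 6.41 TPM in WT against 19.95 ± 0.986 TPM in MU (mean ± SD, n = 3), with overlap.

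**Figure D2:**
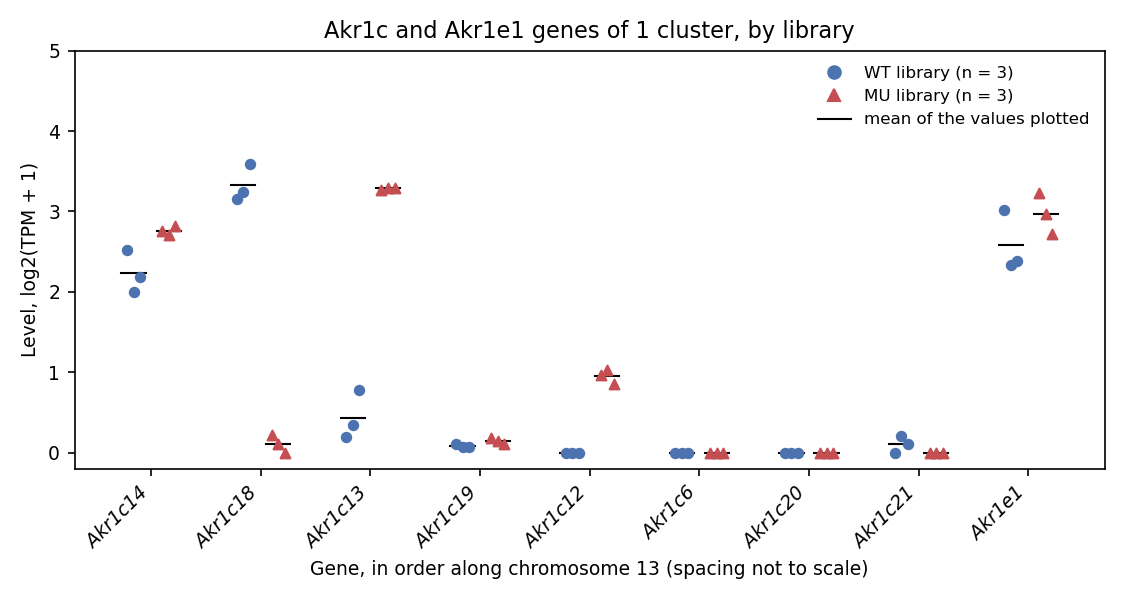
Level of each gene of the Akr1c cluster in every library, as log2(TPM + 1) on the vertical axis, with genes in their order along chromosome 13 (spacing not to scale), circles for WT, triangles for MU and bars for the mean of the plotted values. Akr1c18 is high in all WT libraries (7.91 to 11.0 TPM) and Akr1c13 in all MU libraries (8.67 to 8.82 TPM).

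Aldehyde dehydrogenases contributed a single call. Aldh3a1, an enzyme abundant in the cornea that oxidizes aldehydes of lipid peroxidation, was at 6.01, 5.50 and 4.70 TPM in WT and at 1.26, 0.825 and 1.53 TPM in MU. All MU libraries were below all WT libraries, with a difference of −1.55 (SE 0.19, limma adjusted p = 0.00339). Its neighbour Aldh3a2 lies beside it on chromosome 11 (61223417 to 61267464) on the other strand and encodes fatty aldehyde dehydrogenase. It was at 26.8, 22.3 and 34.98 TPM in WT and 35.9, 33.1 and 35.2 TPM in MU, with overlap (limma adjusted p = 0.218, or 0.0356 without WT replicate 3).

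Aldh2, which encodes the mitochondrial enzyme that clears acetaldehyde, had the highest mean of the family in WT, but in MU it was below Aldh9a1 (37.95 against 48.2 TPM on average). It varied mainly among the unmutated libraries: 60.5, 112.4 and 35.6 TPM in WT against 35.6, 32.97 and 45.3 TPM in MU. The groups overlapped and the difference of −0.72 had a 95% interval from −1.64 to 0.21 (limma adjusted p = 0.25). Without WT replicate 3 the difference was −1.11 and passed (limma adjusted p = 0.0457). Without WT replicate 2, the highest library, the difference was −0.30 and did not pass (limma adjusted p = 0.44). Aldh7a1, which acts in lysine breakdown, was at 29.8, 41.7 and 25.0 TPM in WT and 20.4, 16.9 and 23.6 TPM in MU, a difference of −0.62 (SE 0.21, limma adjusted p = 0.0847, or 0.0463 without WT replicate 3). The authors' deposited table gives Aldh7a1 an adjusted p of 0.027. Its 40 nearest tested neighbours had a median difference of −0.25 relative to all genes, and WT replicate 2 was the highest library for both Aldh2 and Aldh7a1. Aldh3b1 was at 0.563, 1.16 and 1.21 TPM in WT and 2.66, 1.99 and 1.67 TPM in MU, without overlap (difference 0.66, SE 0.23, limma adjusted p = 0.0957).

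The remaining aldehyde dehydrogenases, most of them enzymes of amino acid or carnitine metabolism, did not pass. Aldh6a1, which acts in valine breakdown, averaged 13.4 ± 1.27 TPM in WT against 16.8 ± 1.93 TPM in MU, and Aldh5a1, which oxidizes succinic semialdehyde, at 2.40 ± 0.135 and 1.64 ± 0.285 TPM (mean ± SD, n = 3). Neither overlapped between groups. Aldh9a1, an enzyme of carnitine synthesis, was at 45.3 ± 8.03 and 48.2 ± 3.10 TPM, and Aldh16a1 at 34.6 ± 7.99 and 30.9 ± 1.76 TPM. Aldh4a1, an enzyme of proline breakdown, was at 4.89 ± 0.792 and 5.04 ± 0.537 TPM, and Aldh8a1 at 1.54 ± 0.254 and 1.58 ± 0.302 TPM. Groups of these last 4 genes overlapped. Of the transcript windows of Aldh4a1, 30.0% recur in Gm21969, a readthrough gene listed at up to 0.0716 TPM. The retinaldehyde dehydrogenases were nearly silent: Aldh1a2 was listed at 0 throughout, Aldh1a1 and Aldh1a7 were below 0.125 TPM, and Aldh1a3 reached 0.558 TPM.

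Among the soluble glutathione transferases, an alpha, a theta and the zeta gene rose. Gsta4 encodes an enzyme specialised in conjugating hydroxynonenal, an aldehyde of lipid peroxidation. It was at 78.7, 77.6 and 77.9 TPM in WT and at 138.6, 132.6 and 139.4 TPM in MU, a tight and complete separation with a difference of 0.80 (SE 0.07, limma adjusted p = 0.00128). The other alpha-class genes, Gsta1, Gsta2 and Gsta3, stayed below 0.585 TPM. Gstz1, which encodes maleylacetoacetate isomerase of tyrosine breakdown, was at 34.8, 32.3 and 31.7 TPM in WT and 53.6, 45.2 and 53.4 TPM in MU (difference 0.60, SE 0.10, limma adjusted p = 0.00961). Without MU replicate 1 its adjusted p was 0.0504 (limma). Gstz1 shares 9.14% of its exon bases with Pomt2 on the other strand, which averaged 12.1 TPM, and whether reads were counted by strand is unknown here.

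Gstt1, a theta-class transferase, was at 2.65, 1.27 and 1.08 TPM in WT and 4.08, 4.72 and 5.53 TPM in MU, without overlap, and rose by 1.15 on the log2 scale (limma adjusted p = 0.0231). The call was lost when any 1 MU library was left out (0.0614 to 0.0878) and with no filter on low levels (0.0784). Its neighbour Gstt3 also averaged higher in MU, at 5.25, 2.81 and 3.94 TPM in WT and 6.37, 9.82 and 5.85 TPM in MU, but did not pass (limma adjusted p = 0.0894), while the authors' deposited table gives it 0.0163. Gstt4 was listed at 0 and Gstt2 reached at most 0.235 TPM.

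The pi-class gene Gstp1 and both omega-class genes fell. Gstp1, a cytosolic transferase expressed in most cultured cells, was at 338, 339.6 and 366.9 TPM in WT and at 233.9, 233.4 and 214.9 TPM in MU. Its groups did not overlap and the difference was −0.61 (SE 0.08, limma adjusted p = 0.00493). Gsto1, the most abundant transferase of the group, encodes an omega-class enzyme that reduces dehydroascorbate and removes glutathione from proteins. It was at 535, 497 and 609.6 TPM in WT and at 384, 379.6 and 384.6 TPM in MU, with no overlap (difference −0.51, limma adjusted p = 0.0167). The call was lost without WT replicate 1 (0.0518) or without any 1 MU library (0.0706 to 0.0818). Its neighbour Gsto2 was at 8.48, 9.98 and 10.6 TPM in WT and 6.30, 7.19 and 6.77 TPM in MU, and only just passed (limma adjusted p = 0.0474). That call was lost without any 1 of the 6 libraries (0.0556 to 0.156) and with each other scaling (0.0578 to 0.0778), and the authors' deposited table gives Gsto2 an adjusted p of 0.174.

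Gstp2, the close copy next to Gstp1 on chromosome 19, did not follow the groups at all. It was at 13.6, 12.7 and 0.312 TPM in WT and at 1.05, 0.716 and 13.9 TPM in MU. WT replicates 1 and 2 and MU replicate 3 were high, and WT replicate 3 and MU replicates 1 and 2 were low. Gstp1 separated the groups, but within each group it ran the other way from Gstp2. It was highest in WT replicate 3 (366.9 TPM, against 338.0 and 339.6) and lowest in MU replicate 3 (214.9 TPM, against 233.9 and 233.4). The coding sequences of Gstp1 and Gstp2 have 633 bases and differ at 12, an identity of 98.1%, with an identical run of 303 bases. Of the 50-base windows of Gstp2 transcripts, 54.3% recur in another gene, mostly Gstp1, and 33.7% of those of Gstp1 recur in Gstp2 or a pseudogene. The first 90 coding bases hold 6 of the differences, in capitals, and are shown because reads over the rest of the pair may not tell the copies apart.
Gstp1: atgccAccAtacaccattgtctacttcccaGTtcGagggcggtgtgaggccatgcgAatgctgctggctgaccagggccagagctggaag
Gstp2: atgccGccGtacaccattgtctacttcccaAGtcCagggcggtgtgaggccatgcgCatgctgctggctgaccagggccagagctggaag

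The levels of both Gstp1 and Gstp2 are therefore uncertain. The part of read assignment between the copies in the fall of Gstp1, from 348 to 227 TPM on average, was not tested.

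**Figure D3:**
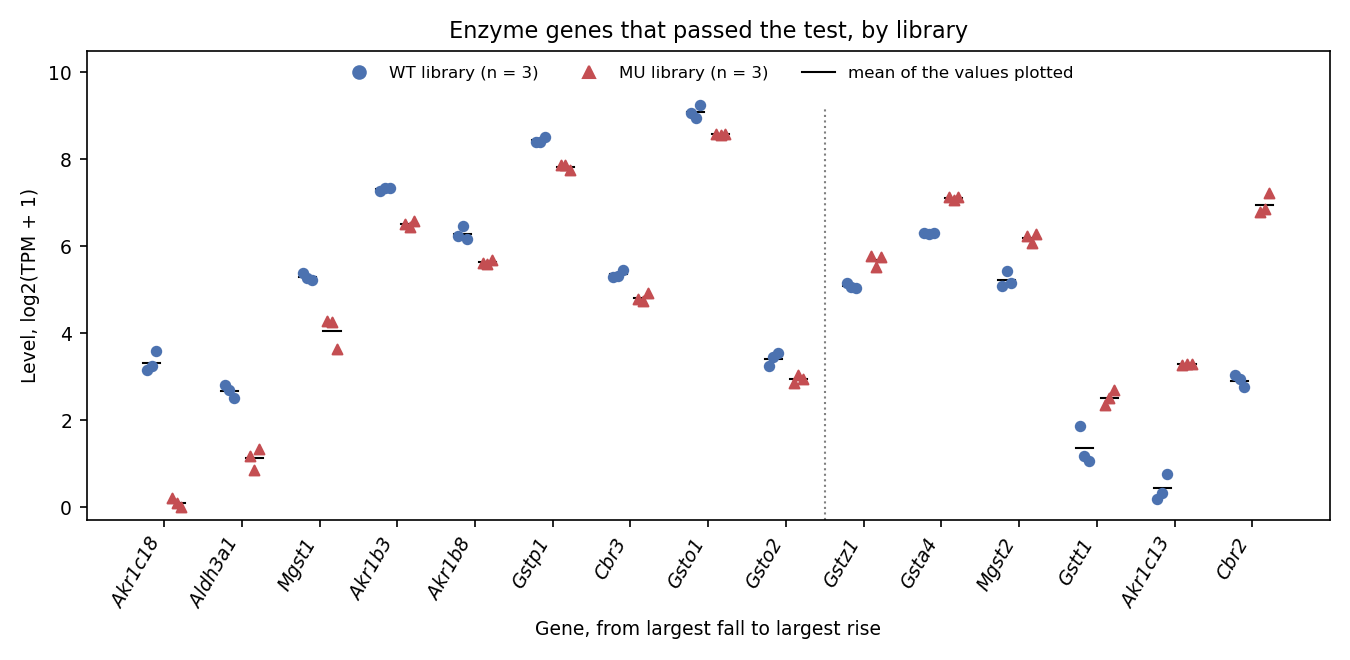
Level of the 15 enzyme genes that passed the test in every library, as log2(TPM + 1) on the vertical axis, ordered on the horizontal axis from the largest fall to the largest rise (dotted line between falls and rises), with circles for WT, triangles for MU and bars for the mean of the plotted values. Groups do not overlap for any of the 15, but these were picked by the test in the same libraries, so this is no separate result. The order runs from Akr1c18 (7.91 to 11.0 TPM in WT) to Cbr2 (110.0 to 150.1 TPM in MU).

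The microsomal transferases, membrane proteins of the endoplasmic reticulum and mitochondria, split. Mgst1, which can also act as a peroxidase, had levels of 41.2, 37.96 and 36.6 TPM in WT and at 18.5, 18.1 and 11.5 TPM in MU. It fell by 1.25 on the log2 scale (SE 0.18, limma adjusted p = 0.00644). Mgst2, an enzyme able to make leukotriene C4, was at 33.1, 42.1 and 34.6 TPM in WT and at 74.0, 66.5 and 76.7 TPM in MU. It rose by 0.97 (SE 0.12, limma adjusted p = 0.00339). Neither gene overlapped between groups. Mgst2 was thus close to Mgst1 in WT, at a mean of 36.6 against 38.6 TPM, and above it in every MU library. Mgst3 was at 24.4, 43.5 and 27.4 TPM in WT and 35.8, 35.1 and 39.6 TPM in MU, with WT replicate 2 the highest of all 6 libraries (difference 0.25, SE 0.21, limma adjusted p = 0.458, or 0.0202 without WT replicate 2).

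Promoter windows were found in RefSeq for 30 of the 35 tested enzymes, 35 windows in all. None was found for the called genes Akr1b3, Aldh3a1 and Gsta4, or for Aldh2 and Aldh7a1. The antioxidant response element core TGACNNNGC, on either strand, occurs in 2 of these 35 windows, of Mgst1 and Aldh9a1, and in 12.4% of all 32851 windows. The core GCGTG bound by the aryl hydrocarbon receptor, also on either strand, occurs in 10 of the 35 windows (10 of the 30 genes) and in 32.4% of all windows. Both motifs can overlap where their letters allow. A match describes letters and not a bound site, and elements further away are outside these windows. The Mgst1 window shown is the only one found of a called gene with the antioxidant core (capitals, its leftmost base at −56 from the start). Another Mgst1 window lacks the core. The Cbr2 window, with no match, is shown as that of the gene with the largest rise.
Mgst1, chr6:138140277-138140576, plus strand: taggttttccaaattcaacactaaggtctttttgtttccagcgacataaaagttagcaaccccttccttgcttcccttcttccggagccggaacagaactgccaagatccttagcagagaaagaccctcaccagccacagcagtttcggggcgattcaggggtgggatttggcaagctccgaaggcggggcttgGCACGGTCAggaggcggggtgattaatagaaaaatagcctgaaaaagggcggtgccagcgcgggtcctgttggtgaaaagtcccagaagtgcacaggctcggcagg
Cbr2, chr11:120731972-120732271, minus strand: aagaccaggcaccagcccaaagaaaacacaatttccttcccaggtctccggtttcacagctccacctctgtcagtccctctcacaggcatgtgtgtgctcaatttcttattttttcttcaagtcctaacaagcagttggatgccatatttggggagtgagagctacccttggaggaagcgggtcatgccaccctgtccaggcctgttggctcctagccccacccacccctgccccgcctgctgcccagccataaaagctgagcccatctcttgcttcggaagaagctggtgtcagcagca

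Summed levels show how these changes weigh in total enzyme mRNA. The 58 genes together made up 2182.3, 2289.5 and 2276.6 TPM in the WT libraries and 2032.5, 2003.8 and 2086.3 TPM in the MU libraries. Soluble and kappa transferases summed to 1017, 974 and 1103 TPM in WT and 828, 814 and 825 TPM in MU, a ratio of 0.798 between means. Aldo-keto reductases had a ratio of 0.89 and aldehyde dehydrogenases of 0.842, both without overlap between groups. Aldh2, which was not called and whose groups overlapped, made up 29.1% of the aldehyde dehydrogenase sum in WT and 18.9% in MU. The 4 carbonyl reductases summed to 76.9, 80.98 and 74.6 TPM in WT and 169.7, 175.1 and 210.0 TPM in MU, where Cbr2 made up 67.6% of the sum, against 8.46% in WT. Sums of the microsomal transferases overlapped, at 98.6 to 124 TPM in WT and 119.7 to 128 TPM in MU. They did not overlap when mtDNA genes were taken out of the total (111 to 135 in WT, 141 to 151 in MU). With median-of-ratios scaling the sums of all genes, of aldo-keto reductases and of aldehyde dehydrogenases overlapped between groups, while those of soluble transferases and carbonyl reductases did not.

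**Figure D4:**
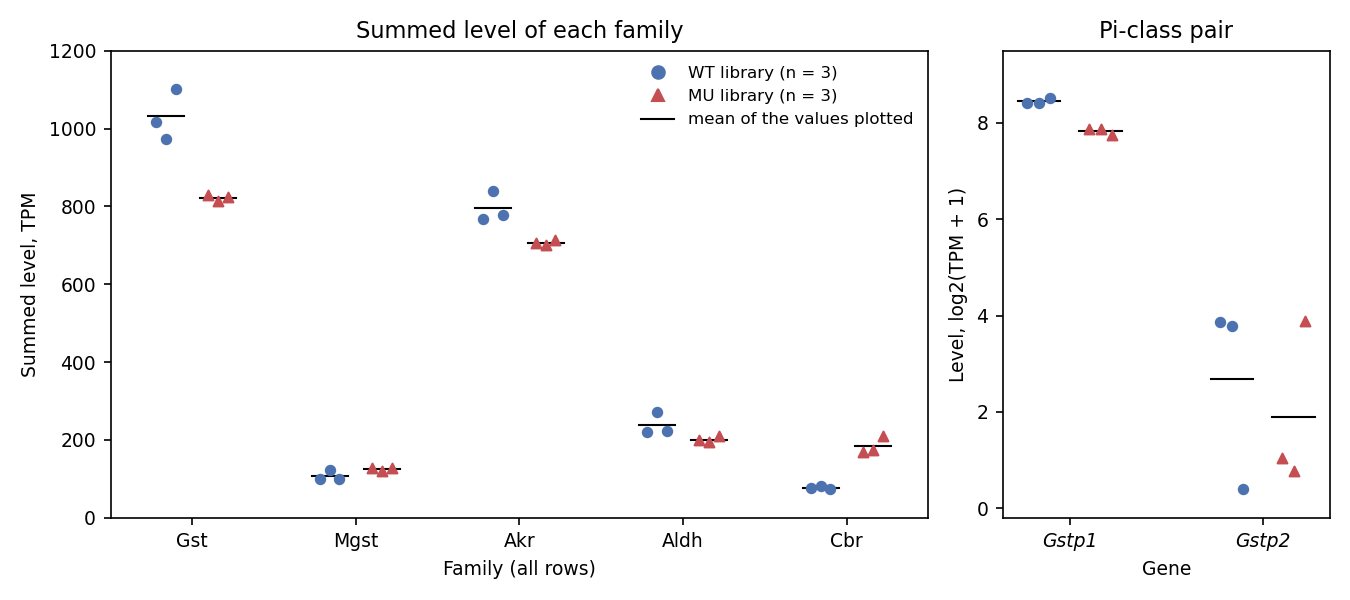
Left, summed TPM of all genes of each family in every library (circles WT, triangles MU, bars the mean of the plotted values), with carbonyl reductases (Cbr) higher in MU (169.7 to 210.0 TPM) and soluble transferases (Gst) lower (814 to 828 TPM). Right, log2(TPM + 1) of the pi-class pair, where Gstp1 separates the groups and Gstp2 sets WT replicate 3 and MU replicates 1 and 2 (0.312 to 1.05 TPM) apart from the other libraries (12.7 to 13.9 TPM).

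Other lists are read beside all genes tested, of which 7.12% rose and 11.6% fell, with a median difference of −0.05. Of 12 tested genes of glutathione supply, recycling and breakdown, 7 fell and 2 rose, with a median of −0.51. Falls on this mixed list are therefore not all falls of supply genes. Gsr, glutathione reductase, averaged 135.5 ± 5.31 TPM in WT against 59.6 ± 3.42 TPM in MU (mean ± SD, n = 3, here and for the other lists, limma adjusted p = 0.000535). Gclm, the modifier subunit of glutamate-cysteine ligase, was at 419.7 ± 44.7 and 172 ± 11.0 TPM (0.0011). Rises were found for Dpep2, a dipeptidase, from 0.444 ± 0.155 to 3.15 ± 1.44 TPM (limma adjusted p = 0.0149), and for Gss, glutathione synthetase, from 19.0 ± 1.49 to 25.6 ± 2.08 TPM (0.0398). Dpep2 reached 1 TPM in MU alone, so it had to differ to be tested. Leaving out 1 library gave 3 to 6 falls and 0 to 2 rises. The call of Dpep2 was lost without WT replicate 1 or MU replicate 3, and that of Gss without any 1 library other than WT replicate 2.

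Transferases outside the rule included the mu class. Of 9 tested, 4 rose and 1 fell, against 7.12% and 11.6% of all genes, with a median of 0.04. Gstm2 went from 7.86 ± 2.91 to 53.7 ± 2.44 TPM and Gstm4 from 0.0894 ± 0.155 to 2.71 ± 0.493 TPM (limma adjusted p = 0.00152 and 0.00363), and close mu-class copies may share reads. Gstm4 reached 1 TPM in MU alone, so its difference was built into the level rule. Ptges, a prostaglandin E synthase related to the microsomal transferases, was the gene that fell, from 40.9 ± 2.78 to 24.65 ± 2.052 TPM (limma adjusted p = 0.00565). Leaving out 1 library gave 3 or 4 rises and 1 to 3 falls.

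Of 39 other carbonyl, alcohol and quinone oxidoreductases tested, 4 rose and 5 fell, with a median of −0.04. These 9 calls of 39 stand beside 18.8% of all genes called. Kcnab3, 1 of the falls, reached 1 TPM in WT alone (1.95 against 0.659 TPM on average) and had to differ. Dhrs9, a short-chain retinol dehydrogenase, went from 10.4 ± 1.10 to 25.97 ± 1.203 TPM, and Dcxr, which reduces diacetyl and xylulose, from 16.7 ± 0.759 to 31.2 ± 2.48 TPM (limma adjusted p = 0.00124 and 0.00271). Ptgr1, which reduces the double bond of unsaturated aldehydes and prostaglandins, fell from 62.4 ± 5.70 to 40.0 ± 0.649 TPM, and Cryz, a quinone reductase, from 35.9 ± 2.56 to 25.3 ± 2.39 TPM (0.00648 and 0.022). The rises numbered 5 to 8 with other scalings and the falls 3 or 4, and leaving out 1 library gave 1 to 7 falls. The call of Cryz was lost without WT replicate 1, MU replicate 2 or MU replicate 3, and after centring on neighbouring genes.

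Among 14 tested genes of conjugate export and of the first and second phases of detoxification, 3 rose and 1 fell, against 7.12% and 11.6% of all genes, with a median of −0.08. Ephx1, microsomal epoxide hydrolase, rose from 30.4 ± 4.34 to 110.6 ± 8.01 TPM and Cyp1b1, a cytochrome P450 under control of the aryl hydrocarbon receptor, from 10.52 ± 0.903 to 25.7 ± 1.51 TPM (limma adjusted p = 0.000502 and 0.00115). Ephx2, soluble epoxide hydrolase, had 1.80, 1.64 and 1.79 TPM in the unmutated line, and each MU library lists it at 0. It is the 1 fall, and having passed the level rule through WT alone it had to differ. These counts were the same whichever 1 library was left out.

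Of 14 tested regulators, 1 rose and 4 fell, against 7.12% and 11.6% of all genes, with a median of −0.22. Maff, a small partner of NRF2, went from 22.2 ± 0.618 to 10.2 ± 0.0471 TPM, and Ahr, the aryl hydrocarbon receptor, from 7.45 ± 1.09 to 2.00 ± 0.477 TPM (limma adjusted p = 0.00101 and 0.00357). Bach2, a repressor that binds similar elements, rose from 0.869 ± 0.509 to 5.45 ± 1.30 TPM (0.00546). The falls numbered 2 or 3 with other scalings, 2 to 5 leaving out 1 library and 2 after centring on neighbouring genes.

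Of 21 tested NRF2 targets outside the rule, 8 fell and 2 rose, against 11.6% and 7.12% of all genes, with a median of −0.30, against −0.05. This list shares Gclm, Gclc and Slc7a11 with the glutathione list, Ephx1, Abcc1 and Abcc4 with the detoxification list and Nqo1 with the oxidoreductases. The falls with the smallest adjusted p were Gclm and Txnrd1, cytosolic thioredoxin reductase, which went from 248.8 ± 6.09 to 159.8 ± 6.41 TPM (limma adjusted p = 0.00332). Beside Ephx1, Cat, which encodes catalase, rose from 23.4 ± 1.33 to 29.6 ± 0.224 TPM (0.041), a call lost when any 1 library other than WT replicate 2 was left out. Leaving out 1 library gave 3 to 8 falls. Of 10 tested genes of the retinoic acid response, 1 rose and 2 fell, against 7.12% and 11.6% of all genes, with a median of −0.03. Tgm2, a transglutaminase, rose from 5.92 ± 0.569 to 15.6 ± 1.25 TPM (limma adjusted p = 0.00152), and Crabp1, a retinoic acid carrier, fell from 455.5 ± 137.6 to 231.5 ± 7.71 TPM (0.0234), as did Rdh10, a retinol dehydrogenase also among the oxidoreductases, from 17.95 ± 2.62 to 12.1 ± 0.633 TPM (0.0326). The calls of Crabp1 and Rdh10 were lost without WT replicate 1 or any 1 MU library, and that of Rdh10 also without WT replicate 3.

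Levels of neighbouring genes were compared because the median difference varied by chromosome. Over the chromosomes of the tested enzymes it ran from −0.31 (chromosome 8) to 0.11 (chromosome 10), and the cause was not tested. Around the 15 called enzymes, the median difference of 25 to 40 tested protein-coding neighbours lay between −0.11 and 0.20 relative to all genes. Around the 20 others it lay between −0.31 (Cbr4) and 0.35 (Mgst3). After the neighbours' median was subtracted, 6 enzymes were higher and 8 lower, and the call lost was that of Gsto2. The authors' deposited table has 9 higher and 9 lower of the 35 at an adjusted p under 0.05, of which 14 were called the same way by limma. The exception among the limma calls was Gsto2.

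The 23 enzymes not tested reached at most 1.03 TPM, in Akr1c12, and 7 of them were listed at 0 in every library. At the edge of the level rule, judged by the third highest library, Akr1c12 had 0.809 and Gsta3 0.355 TPM, just outside, and Aldh8a1 had 1.54 and Aldh3b1 1.67 TPM, just inside. Absence of an RNA cannot be read from a listed 0 when depth is unknown.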

How the data were processed

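Messenger RNA of 6 NIH-3T3 libraries was sequenced from stranded poly(A) libraries, per the labels' protocols. Per the submitters' processing notes, the authors worked with mm10. The authors' tools listed there are HISAT2 2.05.0, FastQC 0.11.4, DESeq2 1.20.0 and featureCounts 1.5.0-p3. No source used here gives their settings, the annotation, whether counting used strand, or how TPM was obtained. The authors deposited log2(TPM + 1) per gene and library, per the file headers and the values, so depth is unknown. A second table the authors deposited holds, for each gene, group means in TPM and their log2 fold change with its raw and adjusted p-value.

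Values were returned to TPM. Genes with at least 1 TPM in at least 3 of 6 libraries (14209) were tested as log2(TPM + 1), a pseudocount of 1 that understates changes of low genes, with limma 3.58.1 in R 4.3.3 (moderated, intensity trend, two-sided, no covariate, Benjamini-Hochberg over all genes tested, threshold 0.05). Of 55401 genes, 55141 matched GENCODE M21 (GRCm38) by identifier without version. Shared sequence was counted as windows of 50 bases of M21 transcripts found in another gene on either strand, a length chosen without knowledge of the read length. Neighbour centring subtracts from MU the median difference of up to 20 tested protein-coding genes on each side. In a simulation on the genes' means and spreads, the test recovered 5.8% of log2 changes of 0.5 (69 genes), 49.2% of 1.0 (63) and 77.9% of 2.0 (68). Far fewer genes were changed there than the 2667 called in the data. The adjustment over all genes is then stricter, so these shares may understate recovery. Real changes of small size can thus go uncalled. Alternatives were other pseudocounts, level filters, scalings, fits and libraries left out in turn.

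Values were given for every library for enzymes past the threshold and the most abundant of each family, for others where neighbours or copies were compared, and full statistics for the 3 smallest adjusted p of each family. From each other list, the 2 rises and 2 falls with the smallest adjusted p were named. The enzymes and lists were chosen with earlier results of these data known, so no p-value was adjusted over them alone. Of the listed genes Dhrsx and Hsd17b8 found no match. Same-numbered WT and MU libraries were not treated as pairs, since their deviations from the group means had correlations of 0.0495, 0.0154 and −0.0744.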

Additional observations from a re-analysis of the deposited data

How the results depend on the processing

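Of the 15 calls among the enzymes, 10 held in each of up to 18 alternative settings, 5 were lost in at least 1 (Gsto2, Gsto1, Gstt1, Cbr3 and Gstz1) and 0 turned direction. Of the 20 enzymes not called, 6 passed in at least 1 setting. Akr1b10 did so in 5 of 18 settings, and Akr1c14, Aldh2, Aldh3a2, Aldh7a1 and Mgst3 in only 1 of 18 each. With a replicate block, which pairs libraries by a number the labels share and that the data did not bear out as pairs, 5 enzymes were higher and 7 lower, and over all genes 456 were higher and 637 lower, against 1012 and 1655 without it. Leaving out 1 library gave 427 to 1153 higher and 644 to 2238 lower genes, and 4 to 7 higher and 6 to 10 lower enzymes. Of all calls 37.9% were higher, but 46.2% when scaled by median of ratios, 48.8% when quantile-normalized and 48.6% when mtDNA genes were taken out of the total. These scalings gave 8, 7 and 7 higher enzymes and 8 lower in each. No filter gave 699 higher and 1191 lower genes. After centring on neighbours, differences of uncalled enzymes took the other sign for Akr7a5 (0.019), Aldh8a1 (−0.11), Aldh9a1 (−0.22), Cbr1 (−0.19) and Mgst3 (−0.10). Leaving out 1 library, they ranged from −0.0217 to 0.0528 for Akr1a1, −0.358 to 0.0522 for Akr7a5, −0.265 to 0.039 for Aldh16a1, −0.0498 to 0.142 for Aldh4a1, −0.0707 to 0.0938 for Aldh8a1, −0.00617 to 0.233 for Aldh9a1 and −0.16 to 0.15 for Cbr1. The cause of these changes was not tested. Depth is unknown, so no limit of detection can be given, and 3 libraries a group limit the precision.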
